A study of Mus musculus with 16 samples.

Results

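Levels of 9 transcription regulators that respond to nerve supply in skeletal muscle were followed in mouse rotator cuff muscle after tendon and nerve injury. They are the myogenic factors Myog, Myod1 and Myf6, the MEF2 factors Mef2a, Mef2c and Mef2d, and the regulators Runx1, Gadd45a and Hdac4. The genes were chosen by name, with earlier results of these data known, and all 9 are among the 11710 genes of the count table. All 9 also passed the filter on low counts, which kept 11709 genes. RNA sequencing covered 16 samples in 4 groups of 4. The first group is unoperated muscle of C57BL/6J mice (BL6 below), the second is muscle of the same strain after the tendon was cut and the muscle denervated, and the other two are the same pair in MRL/MpJ mice (MRL below). No transgene or further treatment is named for any group, and the controls are unoperated rather than sham-operated. Age, sex, the time between surgery and collection and the number of animals are not given in the sources used here. The tissue is called rotator cuff muscle here, as the submitters write infraspinatus in the design and supraspinatus in the sample labels. The labels do not say that samples came from separate animals, so the p-values measure the spread between these samples.

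Myogenic basic helix-loop-helix (bHLH) factors bind E-box sequences as dimers with E proteins and switch on muscle genes. MyoD (Myod1) acts in muscle precursors, myogenin (Myog) acts as they differentiate, and Myf6 is the family member kept at a high level in mature fibers. In innervated fibers electrical activity keeps myogenin low. When the nerve is lost, the deacetylase HDAC4 is known to repress the corepressor Dach2, which itself represses Myog, and myogenin then activates acetylcholine receptor genes and ubiquitin ligases. MEF2 proteins bind A/T-rich sites beside the myogenic factors and are held in check by class IIa deacetylases such as HDAC4. Runx1 and Gadd45a are classical genes of denervated muscle: Runx1 limits structural breakdown of the fiber, and Gadd45a is a stress-response gene induced in fiber nuclei.

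The stretch before the start of Myog is shown first because it holds motifs of the kinds through which myogenic, MEF2 and homeobox factors are known to act on this gene. It lies at chr1:134289754-134290003 on the plus strand (RefSeq, GRCm38.p6) and covers the 250 bases before the annotated start. Its last 15 bases lie within the Myog gene as GENCODE draws it. The same stretch of Mef2a, at chr7:67372859-67373108 on the minus strand, is given for comparison as a gene that fell. Both are written 5′ to 3′ with motif matches in capitals.
Myog: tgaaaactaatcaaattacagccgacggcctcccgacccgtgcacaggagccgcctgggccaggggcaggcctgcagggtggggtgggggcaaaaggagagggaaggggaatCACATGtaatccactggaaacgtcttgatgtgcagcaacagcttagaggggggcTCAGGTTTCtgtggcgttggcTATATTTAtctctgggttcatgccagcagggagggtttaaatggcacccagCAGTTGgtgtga
Mef2a: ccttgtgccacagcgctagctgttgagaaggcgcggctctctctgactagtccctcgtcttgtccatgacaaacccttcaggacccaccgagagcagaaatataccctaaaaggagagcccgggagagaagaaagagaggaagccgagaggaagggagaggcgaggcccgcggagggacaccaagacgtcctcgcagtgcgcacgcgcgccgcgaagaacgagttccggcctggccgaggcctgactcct
Both strands were searched for the E-box CANNTG, the MEF3 site TCAGGTTTC, the RUNX site TGTGGT, the MEF2 consensus and the shorter MEF2 core TATATTTA. The core was added after the Myog sequence had been read. Counted back from the start site, Myog held E-boxes at -138 to -133 and at -12 to -7, the MEF3 site at -84 to -76 and the MEF2 core at -63 to -56, with no overlap between them and no match to the RUNX site or the full MEF2 consensus. The Mef2a stretch held no match to any of the 5. Among 32851 RefSeq promoter stretches of the same length, 66.2% held an E-box, 14.0% the RUNX site, 2.92% the MEF2 consensus, 1.12% the MEF2 core and 0.387% the MEF3 site. A match describes the letters and is not a measured binding site. RefSeq stretches were found for 7 of the 9 genes and not for Myod1 and Myf6. Mef2d and Hdac4 held none of the motifs, and Gadd45a held 1 E-box. Mef2c and Runx1, each with more than 1 annotated start, held E-boxes and none of the other motifs.

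After surgery the regulators did not move as a block. In BL6 muscle 7 of the 9 changed, 2 higher (Myog, Runx1) and 5 lower (Myod1, Mef2a, Mef2c, Mef2d, Hdac4). In MRL muscle 5 changed, 2 higher (Myog, Runx1) and 3 lower (Myod1, Mef2a, Mef2d). Calls are from edgeR's quasi-likelihood test at an adjusted p under 0.05. Surgery changed much of the transcriptome: the same rule called 67.9% of all genes in BL6 (35.1% higher and 32.8% lower) and 45.0% in MRL (22.3% higher and 22.7% lower). The shares called among the 9 are near this background. The median log2 fold change of the 9 was -0.38 in BL6 and -0.36 in MRL, against 0.04 and 0.01 over all genes. In MRL the count fell from 5 to 3 when unoperated MRL replicate 2 or 3 or operated MRL replicate 1 or 3 was left out. The plot of surgery effects shows both strains side by side. The Schwann cell genes S100b, Sox10 and Mbp, of the glia of the nerve, moved with surgery. They summed to 22.0 to 25.7 CPM in unoperated and 52.7 to 122 in operated BL6 muscle, and to 17.0 to 36.3 and 32.3 to 101 CPM in MRL, with overlap. All 3 rose in BL6 and S100b and Mbp in MRL, with a median log2 fold change of 1.93 and 1.15, and their part in the results for the 9 regulators was not tested.

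**Figure D1:**
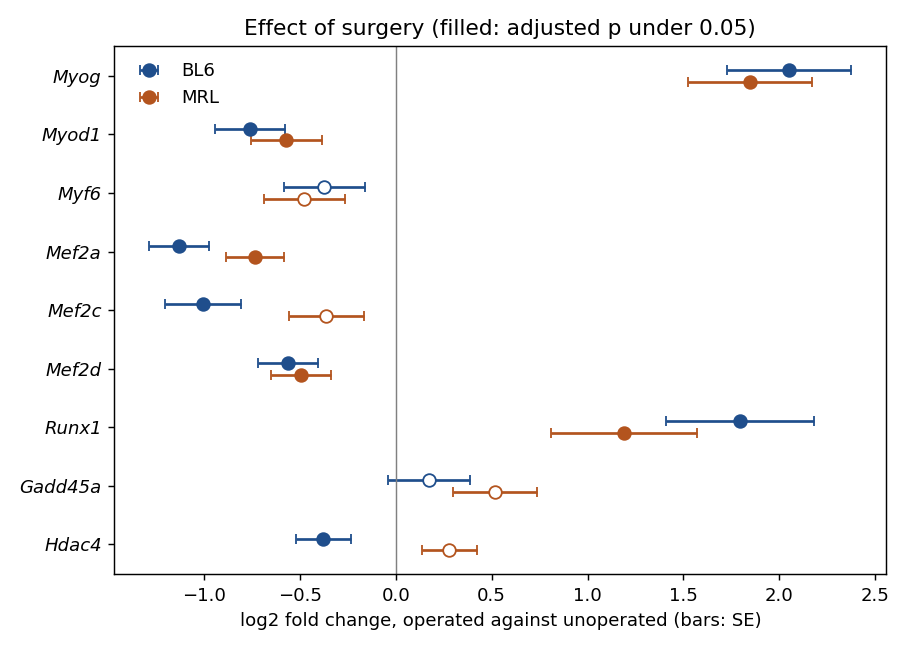
Log2 fold change of each regulator between operated and unoperated muscle (x axis), with its standard error, in BL6 (blue) and MRL (orange); filled points have an adjusted p under 0.05. Myog and Runx1 lie to the right of 0 in both strains, the MEF2 factors and Myod1 to the left, and Hdac4 on opposite sides.

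Myog, myogenin, showed the largest rise of the 9 in both strains. Unoperated BL6 samples held 4.63, 3.45, 1.85 and 2.33 CPM (a gene's counts per 1000000 counts of the scaled library), and operated BL6 samples held 8.03, 11.8, 13.0 and 17.9. Unoperated MRL samples held 2.38, 2.76, 2.29 and 4.77 CPM, and operated MRL samples held 10.6, 10.3, 8.02 and 15.1. Every operated sample was above every unoperated sample of its strain. The mean went from 3.06 ± 1.24 to 12.7 ± 4.05 CPM in BL6 and from 3.05 ± 1.16 to 11.0 ± 2.98 CPM in MRL (SD, n = 4 each). The log2 fold change was 2.05 (SE 0.32), or 4.14-fold, in BL6, and 1.85 (SE 0.32), or 3.60-fold, in MRL. EdgeR's quasi-likelihood test gave adjusted p-values of 9.3e-05 and 0.0012. Leaving out any 1 sample gave 1.83 to 2.32 in BL6 and 1.65 to 2.15 in MRL, called each time. The effects of the strains differed by -0.20 (adjusted p = 0.830, edgeR's quasi-likelihood interaction test). Bulk counts cannot tell a change in RNA per cell from a change in the share of cells that make it.

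Myod1, the precursor factor, moved the other way. Unoperated BL6 samples held 33.9, 23.1, 24.9 and 21.5 CPM against 16.2, 17.5, 15.1 and 12.2 after surgery. MRL samples held 14.98, 14.01, 21.3 and 18.5 CPM unoperated and 9.09, 12.3, 10.2 and 14.7 operated. The BL6 groups did not overlap, while operated MRL replicate 4 lay above unoperated MRL replicate 2. Myod1 fell by 0.76 on the log2 scale in BL6 (SE 0.18, adjusted p = 0.0020) and by 0.57 in MRL (SE 0.18, adjusted p = 0.0212) by edgeR's quasi-likelihood test. The MRL call was lost without unoperated MRL replicate 3 or 4 or operated MRL replicate 1 or 3 (adjusted p 0.0765, 0.0528, 0.0688 and 0.0663 in edgeR), and with scaling by total counts alone (0.0595). Markers of satellite cells, the muscle stem cells (Pax7, Cdh15, Vcam1 and Itga7), summed to 148 to 177 CPM in unoperated and 147 to 193 in operated BL6 muscle, and to 113 to 132 and 124 to 189 CPM in MRL. The members of this list went different ways in BL6. Pax7 and Cdh15 fell by 0.69 and 0.58 on the log2 scale (adjusted p 0.0339 and 0.0016 in edgeR), Vcam1, which other cell types also make, rose by 1.01 (adjusted p = 0.0096), and Itga7 stood at 0.09 (adjusted p = 0.565). The BL6 call of Pax7 was lost without unoperated replicate 1, 2 or 3 or operated replicate 2 or 4 (adjusted p 0.0553 to 0.0931), and with total-count scaling (0.150). That of Vcam1 was lost without operated BL6 replicate 4 (0.52, adjusted p = 0.0592). In MRL Cdh15 fell by 0.36 (adjusted p = 0.0422), Vcam1 rose by 0.96 (adjusted p = 0.0212), and Pax7 and Itga7 stood at 0.21 and 0.31, neither called. The MRL call of Cdh15 was lost without unoperated BL6 replicate 2 or 4, operated BL6 replicate 1, unoperated MRL replicate 1, 2 or 3 or operated MRL replicate 1, 2 or 3, one at a time (adjusted p 0.0502 to 0.116 in edgeR). That of Vcam1 was lost without unoperated MRL replicate 2, 3 or 4 or operated MRL replicate 3 (0.0566 to 0.0592). Without operated MRL replicate 4 Pax7 stood at -0.05 in MRL. The part of these markers in the Myod1 result was not tested.

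Myf6, the factor of mature fibers, did not pass the test in either strain. Its BL6 levels were 79.4, 76.3, 78.0 and 76.1 CPM unoperated and 61.5, 84.6, 55.4 and 38.1 operated. Its MRL levels were 110, 126, 98.8 and 112 CPM unoperated and 76.2, 85.2, 53.5 and 107 operated. In each strain 3 operated samples were below all unoperated ones, and the remaining one, BL6 replicate 2 or MRL replicate 4, lay above or within their range. The log2 fold change was -0.37 in BL6 (SE 0.21, adjusted p = 0.125) and -0.48 in MRL (SE 0.21, adjusted p = 0.0735) in edgeR's quasi-likelihood test. Without operated BL6 replicate 2 the BL6 value was -0.59 (adjusted p = 0.0155 in edgeR), and without operated MRL replicate 4 the MRL value was -0.65 (adjusted p = 0.0166). The MRL fall was also called without operated BL6 replicate 2 or 4 (adjusted p 0.0400 and 0.0346), with DESeq2 (-0.49, adjusted p = 0.0469), and with 3 libraries left out together that are named beside Runx1 (-0.66, adjusted p = 0.0040). In the authors' deposited table Myf6 was called in MRL, with a log2 fold change of -0.58 and a false discovery rate of 0.0242.

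**Figure D2:**
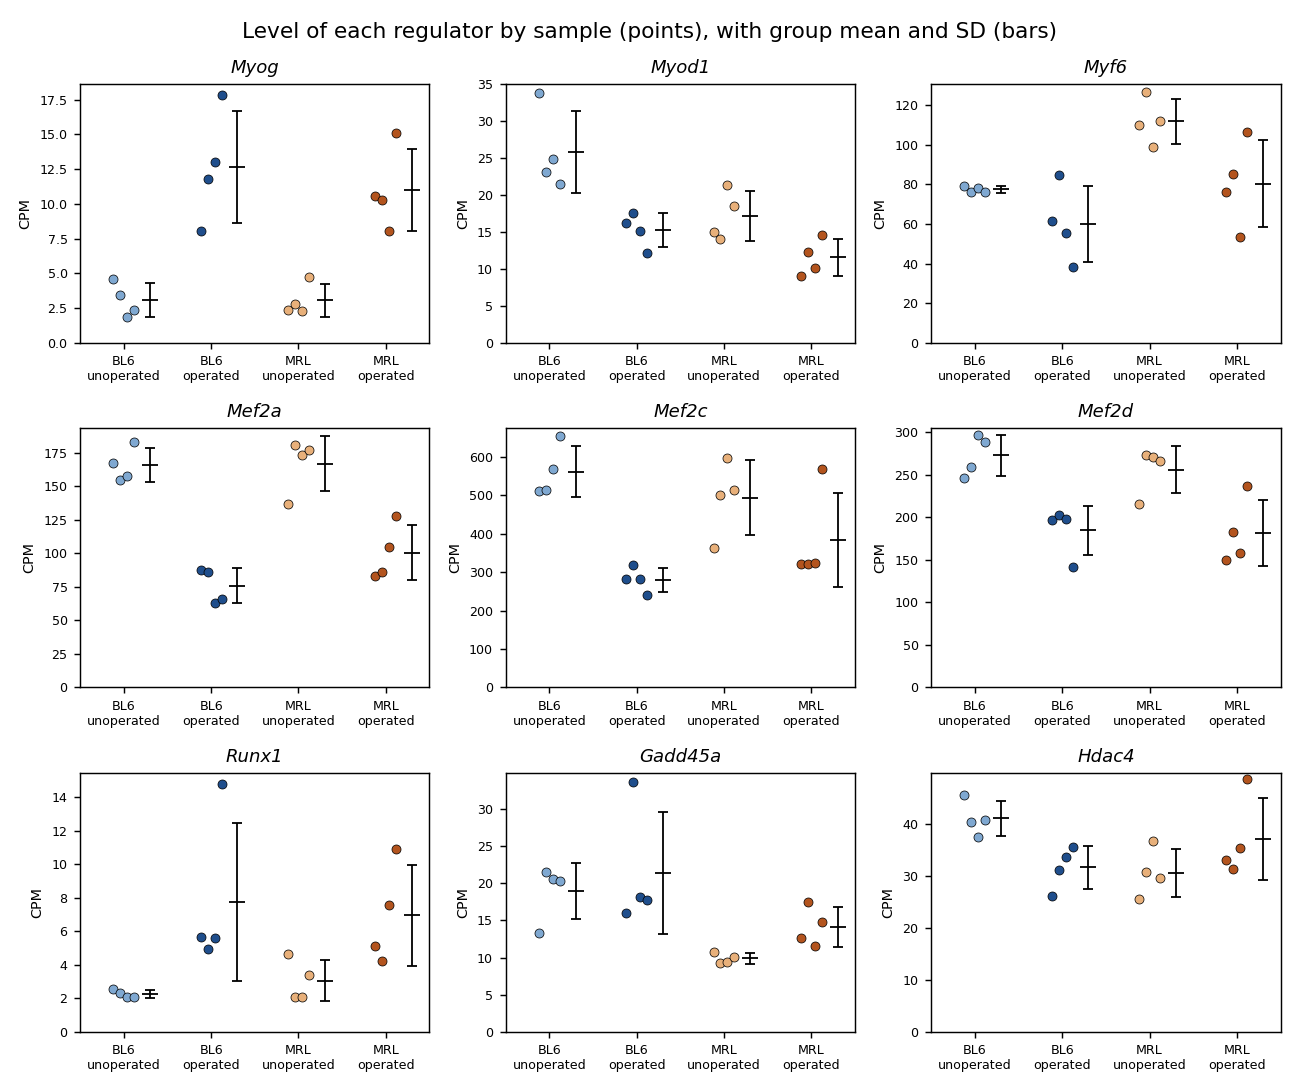
Level of each of the 9 regulators in CPM (y axis, starting at 0) in the 16 samples, by strain and surgery; each point is a sample and the bar is the group's mean and SD. The operated samples of Myog sit between 8.02 and 17.9, above all unoperated ones, and those of Mef2a between 63.1 and 128, below them.

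With more Myog and less Myod1, the balance between these factors was different in operated muscle. Per kilobase of merged exons, a scale that allows for gene length, Myf6 stood highest in all 4 groups, at 61.3 and 47.4 CPM per kb in BL6 and 88.5 and 63.6 in MRL, without and with surgery. Myod1 followed in unoperated muscle at 13.9 ± 2.97 CPM per kb in BL6 and 9.24 ± 1.80 in MRL, and Myog was lowest at 2.05 ± 0.8286 and 2.04 ± 0.778 (SD, n = 4). In operated muscle Myog and Myod1 did not differ beyond their spread, at 8.47 ± 2.71 and 8.20 ± 1.22 CPM per kb in BL6 and 7.36 ± 1.99 and 6.21 ± 1.33 in MRL. The ratio of Myog to Myod1 on this scale went from 0.146 ± 0.0414 to 1.09 ± 0.524 in BL6 and from 0.224 ± 0.0788 to 1.19 ± 0.215 in MRL. Of the summed level of these 3 genes Myog made up 2.62% ± 0.925 without and 14.2% ± 7.36 with surgery in BL6, and 2.04% ± 0.729 and 9.56% ± 0.713 in MRL. These ratios describe the levels and were not tested on their own.

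**Figure D3:**
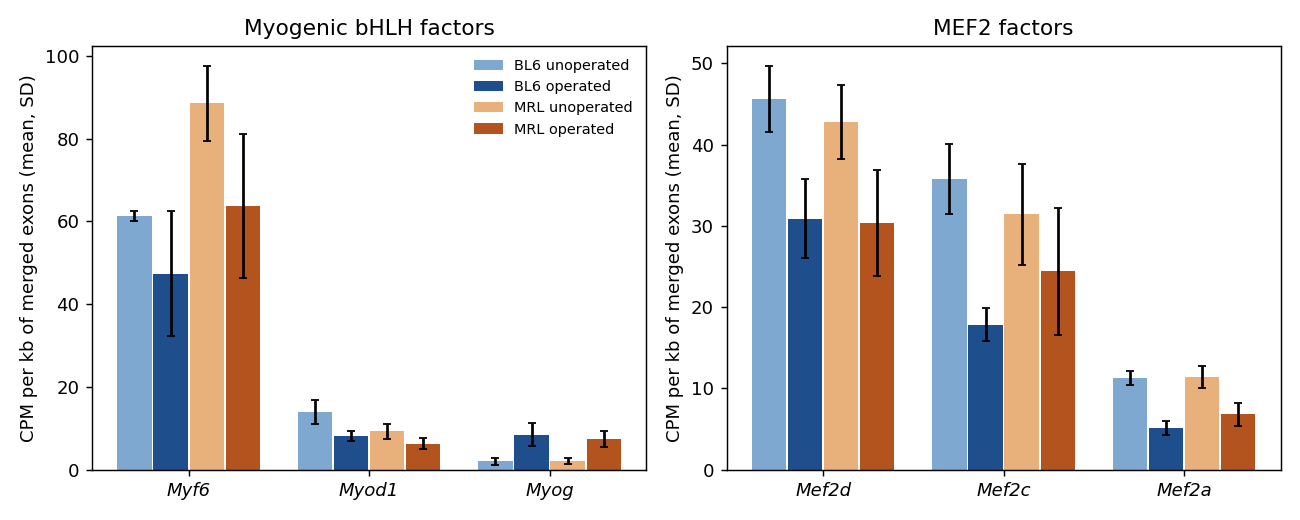
Mean level per kilobase of merged exons (y axis, CPM per kb, starting at 0; error bars are SD over 4 samples) of the myogenic bHLH factors (left) and the MEF2 factors (right) in the 4 groups. Myf6 has the highest bars among the bHLH factors, and Mef2a has the lowest among the MEF2 factors; the order of Mef2c and Mef2d turns without the division by length.

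All MEF2 factors were lower after surgery in BL6, and Mef2a and Mef2d in MRL. Mef2a held 167, 154, 158 and 183 CPM in unoperated and 87.5, 86.3, 63.1 and 66.1 in operated BL6 muscle. In MRL it held 137, 181, 174 and 177 CPM unoperated and 82.9, 86.3, 105 and 128 operated. The groups did not overlap in either strain. Its level was 2.19-fold lower in BL6 (log2 fold change -1.13, SE 0.15, adjusted p = 3.6e-05) and 1.66-fold lower in MRL (-0.73, SE 0.15, adjusted p = 0.0028) by edgeR's quasi-likelihood test. The strains' effects differed by 0.40 (unadjusted p = 0.0863, adjusted p = 0.374 in edgeR's interaction test). Mef2a shares 302 exon bases with Lysmd4 on the opposite strand, and whether counting used strand is not given in the sources used here.

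Mef2c, a MEF2 gene needed for heart and muscle development, held 511, 514, 569 and 655 CPM in unoperated and 281, 318, 282 and 240 in operated BL6 muscle. Its 4 operated BL6 samples all lay below the unoperated ones, 2.01-fold lower on average (SE 0.20 on the log2 scale, adjusted p = 0.00045, edgeR's quasi-likelihood test). MRL muscle held 362, 502, 598 and 513 CPM unoperated and 321, 322, 324 and 568 operated. There 3 operated samples lay within 3 CPM of each other and replicate 4 stood apart, above 3 of the 4 unoperated samples. The MRL fold change was -0.36 on the log2 scale and did not pass the test (SE 0.20, adjusted p = 0.136 in edgeR). Without operated MRL replicate 4 it was -0.61 (adjusted p = 0.00444), so 1 library decides this call. The difference between the strains' effects was 0.64 (unadjusted p = 0.0342, adjusted p = 0.285, edgeR's interaction test), and 0.39 without that library. In the authors' deposited table Mef2c was called in MRL at a log2 fold change of -0.45 and a false discovery rate of 0.0453.

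Mef2d held 246, 260, 297 and 289 CPM in unoperated and 197, 203, 199 and 142 in operated BL6 muscle. MRL muscle held 215, 273, 271 and 266 CPM unoperated and 150, 182, 158 and 237 operated, so replicate 4 again overlapped the unoperated range there. Mef2d fell by 0.56 on the log2 scale in BL6 (SE 0.16, adjusted p = 0.0050) and by 0.49 in MRL (SE 0.16, adjusted p = 0.0188) in edgeR's quasi-likelihood test. The MRL call was lost without unoperated MRL replicate 2 or operated MRL replicate 1 or 3 (adjusted p 0.0516, 0.0636 and 0.0639). Per kilobase of merged exons the unoperated BL6 levels were 45.6 ± 4.04 CPM per kb for Mef2d, 35.8 ± 4.27 for Mef2c and 11.3 ± 0.872 for Mef2a (SD, n = 4). Merged exons count every annotated transcript, which overstates the length of Mef2c (15715 bases) and Mef2a (14681 bases) more than of Mef2d (5985 bases) where only some exons are used. Without the division by length Mef2c lay above Mef2d in every group, so their order depends on the length used. Patterns among the 9 were compared after centring each gene's log2 CPM over the 16 samples, and the MEF2 pairs differed least. The root mean square difference was 0.210 for Mef2a and Mef2c, 0.220 for Mef2c and Mef2d and 0.298 for Mef2a and Mef2d. Myod1 and Mef2d came next at 0.308. Genes outside the 9 came nearer, such as Ddx21 to Mef2a at 0.109, so the closeness is not particular to the MEF2 genes.

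The summed level of 8 fiber markers (Acta1, Ckm, Des, Myh4, Myh1, Tnnt3, Actn3 and Mb) ranged from 108265 to 149629 CPM without and 49590 to 121347 with surgery in BL6, with overlap, and from 98960 to 112543 and 64668 to 83189 CPM in MRL, without overlap. Of these 8 markers 4 fell in BL6 (50.0%) and 3 in MRL (37.5%), and none rose; over all genes 67.9% and 45.0% were called in either direction. The share of counts from mitochondrial DNA was 12.2% to 14.2% in unoperated and 17.4% to 23.8% in operated BL6 muscle, and 11.0% to 11.6% in unoperated MRL muscle. Operated MRL replicates 1 to 3 held 20.1% to 24.9% and replicate 4 held 11.8%, near the unoperated MRL samples. That library was also near or within the unoperated MRL range in its endothelial marker sum (292 CPM against 203 to 288) and its sum of the 3 Schwann cell genes (32.3 CPM against 17.0 to 36.3). Other sums of that library lay outside the unoperated MRL range. Adipocyte markers stood at 1100 CPM against 267 to 375, and fiber markers at 77430 against 98960 to 112543. Its fibroblast and satellite cell marker sums, 2951 and 189 CPM, were the highest of the operated MRL samples. Its leukocyte marker sum of 209 CPM lay within the unoperated range of 61.5 to 327. The part of any of these in the MEF2 results was not tested.

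Runx1, the runt-domain factor of denervated fibers that blood cells also make, rose in both strains from a low level. It held 2.52, 2.32, 2.06 and 2.06 CPM in unoperated and 5.65, 4.92, 5.62 and 14.8 in operated BL6 muscle. It held 4.65, 2.10, 2.06 and 3.39 CPM in unoperated and 5.12, 4.20, 7.56 and 10.9 in operated MRL muscle. The BL6 groups did not overlap, and operated MRL replicate 2 lay below unoperated MRL replicate 1. The log2 fold change was 1.79 in BL6 (SE 0.39, adjusted p = 0.0009) and 1.19 in MRL (SE 0.38, adjusted p = 0.0199) by edgeR's quasi-likelihood test. Without operated BL6 replicate 4 the BL6 value was 1.26, still called. The MRL call was lost without unoperated MRL replicate 2 or 3 (adjusted p 0.0629 and 0.0644) or operated MRL replicate 4 (log2 fold change 0.88, adjusted p = 0.0669).

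In each group the sample with the most Runx1 had the highest leukocyte marker sum. The same held for fibroblast markers (Pdgfra, Col1a1, Col3a1, Dcn, Lum and Fbn1). The leukocyte sum (Ptprc, Cd68, Adgre1, Itgam, Csf1r, Lyz2 and Tyrobp) was 30.6 to 131 CPM in unoperated BL6 muscle. After surgery it was 74.0 to 144 in BL6 replicates 1 to 3 and 495 in replicate 4, the sample with the most Runx1. In MRL it was 61.5 to 84.3 CPM in unoperated replicates 2 to 4, 327 in replicate 1, which also had the most Runx1 of its group, and 112 to 209 in operated muscle. Of the 7 leukocyte markers 4 rose in BL6 (57.1%). In MRL 0 of 7 passed the test, with log2 fold changes from -1.54 (Adgre1) to 0.62 (Cd68). Over all genes 67.9% were called in BL6 and 45.0% in MRL, in either direction. An alternative added after the data were seen left out those 2 libraries and operated MRL replicate 4 together. In it Runx1 rose by 1.24 in BL6 (adjusted p = 0.00027) and 1.15 in MRL (adjusted p = 0.0011) in edgeR. The libraries were picked from these same data. Leukocyte sums of the remaining MRL samples still differed by surgery (61.5 to 84.3 and 112 to 187 CPM), so that fit does not test the part of leukocytes. The part of leukocyte or fibroblast markers in the Runx1 result was not tested.

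Gadd45a, the growth arrest and DNA damage gene, differed between the strains in unoperated muscle. Unoperated BL6 samples held 13.3, 21.5, 20.6 and 20.3 CPM, and unoperated MRL samples held 10.8, 9.20, 9.35 and 10.1. Every unoperated BL6 sample lay above every unoperated MRL sample. The MRL level was 1.92-fold lower (log2 difference -0.94, SE 0.22, adjusted p = 0.0100, edgeR's quasi-likelihood test), the 1 call among the 9 genes in this comparison, in which 10.4% of all genes were called. Leaving out any 1 sample gave -1.08 to -0.87, called each time.

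In the comparison of operated with unoperated muscle Gadd45a did not pass the test in either strain. Operated BL6 samples held 15.98, 33.7, 18.2 and 17.7 CPM, so that replicate 2 alone lay above the unoperated range (log2 fold change 0.17, SE 0.21, adjusted p = 0.482 in edgeR). Without that sample the value was -0.13. Operated MRL samples held 12.6, 17.5, 11.5 and 14.8 CPM, all above the unoperated MRL samples. The MRL log2 fold change was 0.52 (SE 0.22, adjusted p = 0.0638 in edgeR), and it was called in a fit of the MRL groups alone (0.0176), with total-count scaling (0.0334) and without unoperated BL6 replicate 1 (0.0476) or operated BL6 replicate 2 (0.0137). Among operated samples the strains differed by -0.60 (adjusted p = 0.0842).

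Hdac4, the class IIa deacetylase, was lower in operated BL6 muscle, and its MRL value did not pass the test. It held 45.7, 40.5, 37.5 and 40.8 CPM in unoperated and 26.2, 31.2, 33.6 and 35.7 in operated BL6 muscle, without overlap. MRL muscle held 25.5, 30.7, 36.7 and 29.6 CPM unoperated and 33.1, 31.4, 35.4 and 48.7 operated, with overlap. The log2 fold change was -0.38 in BL6 (SE 0.15, adjusted p = 0.0308) and 0.28 in MRL (SE 0.15, adjusted p = 0.123) by edgeR's quasi-likelihood test. The BL6 call was lost with scaling by total counts alone (-0.22, adjusted p = 0.349) and without unoperated BL6 replicate 1 or 4 or operated BL6 replicate 1 or 2 (adjusted p 0.0860, 0.0533, 0.0982 and 0.0532). The difference between the strains' effects was 0.66 (unadjusted p = 0.0057, adjusted p = 0.181 in edgeR's interaction test, 0.0937 to 0.412 over the alternatives). Hdac4 shares 3536 exon bases with the non-coding gene Gm26720 on the opposite strand.

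None of the 9 regulators passed the interaction test of strain and surgery, which called 0.248% of all genes. By unadjusted p under 0.05 this test picked 1843 genes, Mef2c and Hdac4 among them. Between unoperated groups Myod1 was lower in all MRL samples than in all BL6 samples (-0.59, adjusted p = 0.0512 in edgeR) and Myf6 was higher in all MRL samples (0.53, adjusted p = 0.129). Hdac4 was also lower in every unoperated MRL sample (-0.43, adjusted p = 0.0762). The share of all genes whose groups separate in this way is not given here, so such separation is not read as a trait of the regulators. The count of 1 gene called between unoperated groups rose to 2 without operated BL6 replicate 2 or 4 or operated MRL replicate 1, and to 3 without unoperated MRL replicate 3 or operated MRL replicate 4. Between operated groups 0 of the 9 were called, against 12.9% of all genes. There Mef2c was higher in all MRL samples (321 to 568 CPM) than in all BL6 samples (240 to 318 CPM), at a log2 difference of 0.45 (adjusted p = 0.147 in edgeR).

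Genes on a list of satellite cell and differentiation factors were mostly lower. Of those analysed, only Pax7 and Cdh15 are also among the satellite cell markers given above. The sums of those markers overlapped between operated and unoperated muscle in both strains. Of 16 listed genes 11 were analysed here; 9 fell and 1 rose in BL6 and 8 fell in MRL, with a median log2 fold change of -0.89 and -0.59. These are 90.9% and 72.7% of the list, against 67.9% and 45.0% of all genes. All the related lists were chosen with earlier results of these data known, so a share above that of all genes is description only. Six4, a homeobox factor that binds MEF3 sites such as that before Myog, held 32.3 to 35.5 CPM in unoperated and 7.23 to 12.7 in operated BL6 muscle, and 19.6 to 28.1 and 8.20 to 21.3 CPM in MRL. It fell by 1.71 and 0.90 on the log2 scale (adjusted p 5.2e-05 and 0.0091, edgeR's quasi-likelihood test). Tead1, which binds M-CAT elements of muscle genes, fell by 1.94 and 1.69, and Eya4, a coactivator of such homeobox factors, by 1.72 and 1.29. Srf, the serum response factor, fell by 1.32 and 1.08. The 1 gene that rose in BL6 was Vgll2, a TEAD cofactor, at 0.62 (adjusted p = 0.0049); in MRL it stood at 0.09 (adjusted p = 0.667) and at -0.08 without operated MRL replicate 4. The count for MRL was 5 without operated MRL replicate 1 or 3 and with total-count scaling.

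Inhibitors and partners of the myogenic bHLH factors were mostly higher. Of 16 listed, 15 were analysed here, 12 higher and 2 lower in BL6 and 10 higher and 2 lower in MRL, with medians of 1.22 and 1.04. The called genes are 14 and 12 of the 15, against the same background. The Id proteins, which sequester E proteins, rose together: Id1 by 1.89 and 1.38, Id2 by 2.28 and 1.53, Id3 by 2.08 and 1.82 and Id4 by 2.07 and 1.72 (log2, BL6 then MRL). Id3 held 16.6 to 23.8 CPM in unoperated and 56.4 to 138 in operated BL6 muscle, and 15.1 to 20.1 and 45.9 to 68.3 CPM in MRL, with no overlap. Mdfi, an inhibitor of MyoD family proteins, rose by 1.86 and 1.38. The genes that fell were Bhlhe40 (1.35 and 0.84) and Bhlhe41 (1.20 and 1.20), bHLH repressors; the Bhlhe40 call in MRL was lost without operated MRL replicate 3 (adjusted p = 0.0511 in edgeR). Endothelial markers (Pecam1, Cdh5, Kdr, Tek and Emcn) were also higher in sum after surgery. They summed to 268 to 368 CPM in unoperated and 548 to 695 in operated BL6 muscle, and to 203 to 288 and 292 to 726 CPM in MRL. The sum of 292 CPM is that of operated MRL replicate 4, and every operated MRL sample held at least 45.9 CPM of Id3. The part of endothelial markers in the Id results was not tested.

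**Figure D4:**
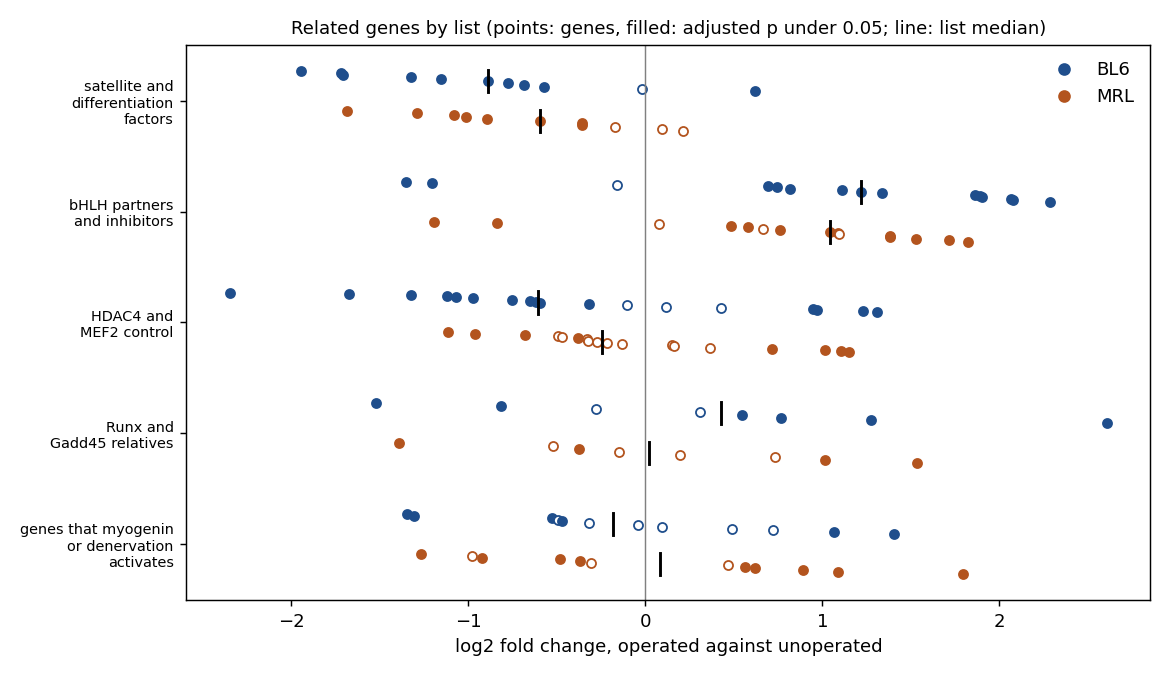
Log2 fold change after surgery (x axis) of the genes of 5 related lists in BL6 (blue) and MRL (orange); filled points have an adjusted p under 0.05 and the black line is the list's median. Most bHLH partners and inhibitors lie right of 0 and most satellite and differentiation factors left of it in both strains.

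Of 18 genes that control HDAC4 and MEF2, all analysed here, 4 were higher and 11 lower in BL6 and 4 higher and 4 lower in MRL, with medians of -0.61 and -0.24. The share called was 83.3% in BL6 against 67.9% of all genes, and 44.4% in MRL, at the background of 45.0%. With the 3 libraries named beside Runx1 left out together, 13 were called in MRL in place of 8. Dach2, the corepressor that holds Myog down in innervated muscle, held 3.27, 2.94, 2.88 and 4.47 CPM in unoperated and 0.727, 0.813, 0.680 and 0.455 in operated BL6 muscle, a fall of 2.35 on the log2 scale (SE 0.29, adjusted p = 2.0e-05, edgeR's quasi-likelihood test). MRL levels were near the lower limit of the data in both groups, with raw counts of 7, 11, 4 and 13 unoperated and 3, 5, 6 and 7 operated. The MRL fold change was -0.49 (SE 0.38, adjusted p = 0.289), and the difference between the strains' effects was 1.85 (adjusted p = 0.125). Between unoperated groups Dach2 was 3.76 lower in MRL on the log2 scale (adjusted p = 4.6e-07 in edgeR), and between operated groups 1.90 lower (adjusted p = 0.0017). Dach1 had the largest called rise of the list in MRL. Without the 3 libraries named beside Runx1, which were picked from these data, it rose by 1.39 there (adjusted p = 2.6e-05 in edgeR). In that fit it stood at 0.31 in BL6, not called, and was 1.46 higher in MRL between operated groups (adjusted p = 7.1e-05). Without operated MRL replicate 4 alone, Dach1 was called in BL6 as well (0.43, adjusted p = 0.0271 in edgeR). Its call between operated groups was lost with limma voom (adjusted p = 0.0992) and in a fit of those groups alone (0.124). It was also lost without operated replicate 1 of BL6 or MRL (0.0521 and 0.0582). Camk2a and Camk2g, calcium-dependent kinases that send HDAC4 out of the nucleus, fell by 1.67 and 1.12 and by 1.32 and 0.96 in BL6 and MRL. Prkd1, another kinase of class IIa deacetylases, rose by 1.31 and 1.11, and Hdac7, a class IIa relative, by 0.97 and 1.01. Mapk14, a kinase that activates MEF2, fell by 1.12 and 0.68.

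Of 8 relatives of Runx1 and Gadd45a analysed, 4 were higher and 2 lower in BL6 and 2 higher and 2 lower in MRL, with medians of 0.43 and 0.02. The shares called, 75.0% and 50.0%, are near the 67.9% and 45.0% of all genes. Some of these calls were lost in edgeR when 1 sample was left out. Runx2, higher in BL6, lost its call without any 1 unoperated BL6 sample (adjusted p 0.0623 to 0.104). Runx1t1 lost its BL6 call without unoperated BL6 replicate 2 or operated BL6 replicate 4 (0.0575 and 0.0554). Map3k4 lost its MRL call without unoperated MRL replicate 2, 3 or 4 or operated MRL replicate 1 or 3 (0.0544 to 0.123). Cbfb, the DNA-binding partner of Runx1, held 125 to 180 CPM in unoperated and 43.3 to 86.5 in operated BL6 muscle, and 145 to 232 and 60.2 to 93.3 CPM in MRL. It fell by 1.52 (adjusted p = 5.0e-05) and 1.39 (adjusted p = 0.0007) in edgeR's quasi-likelihood test while Runx1 rose. Cdkn1a, the cell cycle inhibitor, rose in both strains, by 2.61 in BL6 and 1.54 in MRL. Its samples lay at 13.2 to 18.4 CPM unoperated and 79.9 to 126 operated in BL6, and at 15.1 to 18.3 and 28.3 to 73.2 CPM in MRL. Gadd45b stood at -0.28 and -0.52, neither called.

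Of 14 listed genes that myogenin or denervation is known to activate, 12 were analysed here, 2 higher and 4 lower in BL6 and 5 higher and 4 lower in MRL, with medians of -0.18 and 0.08. The shares called were 50.0% and 75.0%, against 67.9% and 45.0% of all genes. The MRL count of 9 was 5 without unoperated MRL replicate 2 or 4 or operated MRL replicate 1, and 4 without operated MRL replicate 3. Chrnb1, an acetylcholine receptor subunit, rose by 1.07 in BL6 (adjusted p = 8.8e-06) and 0.89 in MRL (adjusted p = 0.0002) by edgeR's quasi-likelihood test. Its samples lay at 23.5 to 32.0 CPM unoperated and 53.1 to 63.7 operated in BL6, and at 30.6 to 36.6 and 57.3 to 67.8 CPM in MRL. Ncam1, an adhesion molecule of denervated fibers that Schwann cells also make, rose by 1.41 in BL6 (adjusted p = 0.0063) and 1.09 in MRL (adjusted p = 0.0388). Without operated BL6 replicate 4 the BL6 value of Ncam1 was 0.75, still called. Its MRL call was lost without unoperated MRL replicate 2, 3 or 4 or operated MRL replicate 3 or 4, one at a time (adjusted p 0.0696 to 0.127 in edgeR), with total-count scaling (0.0796) and with limma voom (0.0604). Myh3, the embryonic myosin heavy chain, rose by 1.80 in MRL (adjusted p = 0.0146) and stood at 0.72 in BL6 (adjusted p = 0.224). Its MRL call was lost without operated MRL replicate 3 (adjusted p = 0.0567) and with limma voom (0.0649). Chrnd and Chrne, further receptor subunits, rose by 0.56 and 0.62 in MRL (adjusted p 0.0210 and 0.0321) and stood at -0.04 and 0.49 in BL6 (adjusted p 0.845 and 0.0557). The MRL call was lost for Chrnd without operated MRL replicate 1 (0.0720), and for Chrne without unoperated MRL replicate 2 or 4 or operated MRL replicate 1, 2 or 3 (0.0538 to 0.106). Chrne in BL6 was called with total-count scaling (0.0193), with DESeq2 (0.0463) and without unoperated BL6 replicate 2, operated BL6 replicate 2 or 4 or operated MRL replicate 4 (0.0058 to 0.0429).

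Chrna1, the subunit that binds acetylcholine, fell by 0.47 in BL6 and 0.37 in MRL. The MRL call of Chrna1 was lost without unoperated BL6 replicate 2 or 4, unoperated MRL replicate 2, 3 or 4 or operated MRL replicate 1, 3 or 4, one at a time (adjusted p 0.0506 to 0.136 in edgeR). Fbxo32, the ubiquitin ligase atrogin, fell by 1.35 and 1.27, and Trim63, its partner MuRF, stood at -0.32 and -0.98, neither called. Musk, the receptor kinase of the neuromuscular junction, fell by 1.31 in BL6 and 0.92 in MRL. The MRL call of Musk was lost without unoperated MRL replicate 2, 3 or 4 or operated MRL replicate 1, 2 or 3, one at a time (adjusted p 0.0615 to 0.120 in edgeR), with total-count scaling (0.0759) and in a fit of the MRL groups alone (0.0850).

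**Figure D5:**
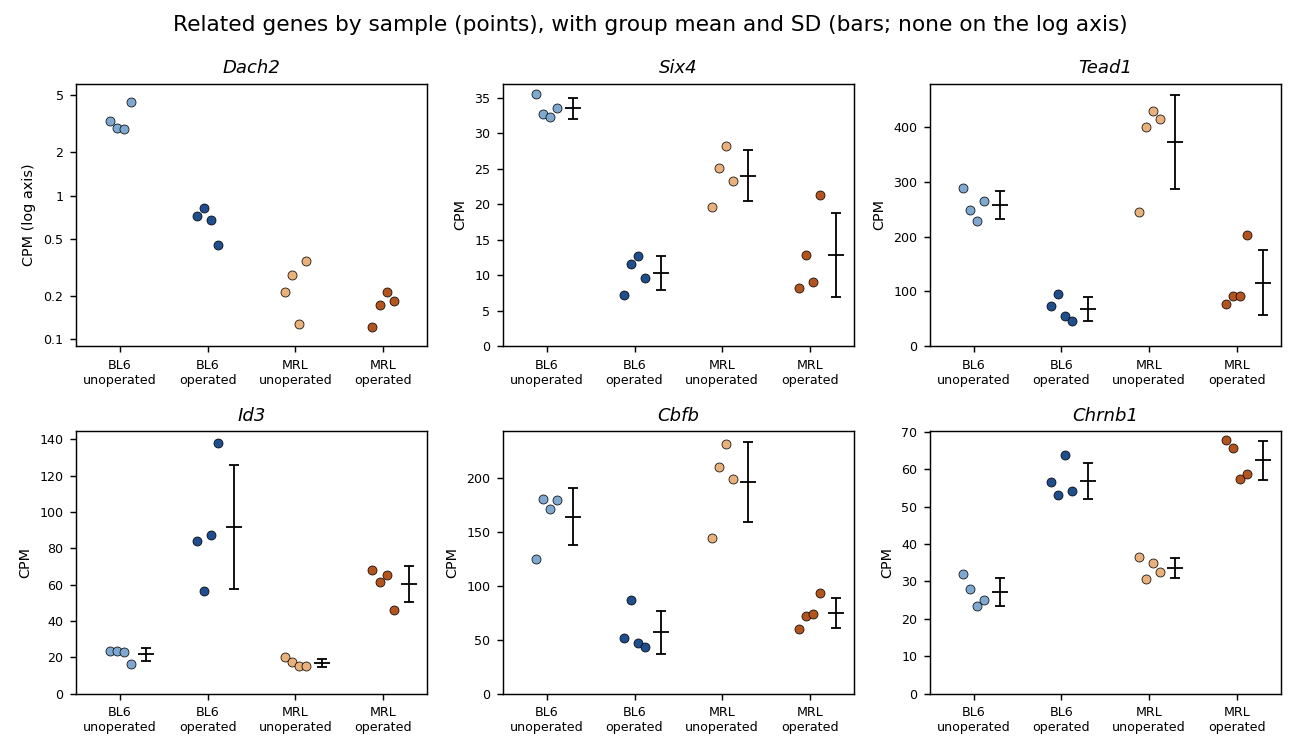
Level of 6 related genes in CPM (y axis, logarithmic for Dach2 and linear from 0 for the others) in the 16 samples by strain and surgery. Points are samples, and bars are the group's mean and SD, drawn in every panel but that of Dach2. Dach2 lies at 2.88 to 4.47 CPM in unoperated BL6 and at 0.122 to 0.352 CPM in the MRL samples.

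The genes whose pattern came closest to that of each regulator called in both strains were found by the root mean square difference of centred log2 CPM over the 16 samples, among 9625 genes (9626 for Runx1) of at least 5 CPM. For Myog these were Sox4 (0.406), Ttc9 (0.419) and Csrp3 (0.421), against a median of 1.11 over all those genes. For Myod1, Zfp617 (0.215) and Ccdc43 (0.219) were among the closest, with a median of 0.539. For Mef2a they were Ddx21 (0.109), Xpo7 (0.121) and Gsk3b (0.122), and for Mef2d Setd3 (0.0912), Prpf19 (0.0938) and Ppp5c (0.0942). For Runx1 they were Chpf (0.248), Ccdc80 (0.261) and Thrsp (0.266). The log2 fold changes of Sox4 and Csrp3 after surgery were 1.78 and 2.09 in BL6 and 1.68 and 1.07 in MRL.

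Total counts ran from 24323862 to 43552964 per sample, so 3 counts stand for 0.0689 to 0.123 CPM, and the lowest count behind any of these Myog values was 70. Adipocyte markers summed to 212 to 375 CPM in unoperated and 1100 to 1918 in operated muscle of both strains, and fibroblast markers reached 5363 CPM in operated BL6 replicate 4 against at most 2951 elsewhere. On the GRCm38 assembly (GENCODE M21) Myog lies at chr1:134289989-134292548, Myod1 at chr7:46376474-46379099, Myf6 at chr10:107492853-107494737, Mef2a at chr7:67231163-67372858, Mef2c at chr13:83504034-83667080, Mef2d at chr3:88142372-88172086, Runx1 at chr16:92601466-92826149, Gadd45a at chr6:67035096-67037457 and Hdac4 at chr1:91928779-92195699, and the values are for whole genes. Opposite-strand exons also overlap Mef2d, Gadd45a and Runx1, by 531, 337 and 106 bases.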

How the data were processed

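RNA sequencing of mouse rotator cuff muscle gave 16 samples in 4 groups of 4, grouped by the strain and surgical group in the labels. Per the labels' protocols, RNA was isolated on columns from finely cut tissue and treated with DNase, and libraries followed standard Illumina protocols. The submitters' processing notes name FastQC, STAR, edgeR and the mm10 build; versions, the counting program and its use of strand are not given in the sources used here. The authors deposited a table of whole-number counts per gene, not normalized by its values, and a second table of the same genes. Per the file headers, that deposited table holds log2 fold changes and log2 CPM, with p-values and false discovery rates for 4 comparisons.

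From the counts, R 4.3.3 with edgeR 4.0.16 gave TMM-scaled CPM and a quasi-likelihood fit of 1 mean per group over all 16 samples, after filterByExpr at a minimum count of 10 (11709 of 11710 genes kept). P-values were adjusted by Benjamini-Hochberg over all genes tested in each of 5 comparisons, and an adjusted p under 0.05 counted as a call. Centred log2 CPM used a prior count of 2. The fit was run on simulated counts in which a small share of genes changed, in operated BL6 muscle alone. Far more genes were called in the real data, so that run does not test the scaling. Totals of 24323862 to 43552964 counts set the precision. Alternatives were other scaling, no filter, DESeq2 1.42.0, limma voom (limma 3.58.1), a replicate block, fits of 2 groups alone, and leaving out samples.

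The members and the gene lists were chosen with earlier results of these data known. Of each related list, genes were eligible to be named when they were among the 3 called genes with the largest rise or fall in a strain; Id1, Mdfi, Gadd45b, Chrna1, Chrnd, Chrne, Trim63, Pax7, Cdh15, Vcam1 and Itga7 were named after their values were seen. Gene positions and exon lengths are from GENCODE M21 (11708 of 11710 gene IDs matched), and promoter sequences from RefSeq GRCm38.p6. Of the listed Schwann cell genes, only S100b, Sox10 and Mbp are reported here.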

Additional observations from a re-analysis of the deposited data

Results flagged for a closer look

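A sample counted as far from the other 3 of its group when its gap to the nearest of them, as a share of the group's range, exceeded Dixon's critical value for 4 samples. This held in 23 of 196 groups tested, 7 of them among the 36 groups of the 9 regulators; chance alone flags about 1 group in 20.

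Among the regulators, unoperated MRL replicate 1 was low for Mef2a (137 CPM, gap 0.839 of the range) and Mef2d (215 CPM, gap 0.882). Operated MRL replicate 4 was high for Mef2c (568 CPM, gap 0.988). Operated BL6 replicate 4 was low for Mef2d (142 CPM, gap 0.905) and high for Runx1 (14.8 CPM, gap 0.926). Gadd45a was low in unoperated BL6 replicate 1 (13.3 CPM, gap 0.850) and high in operated BL6 replicate 2 (33.7 CPM, gap 0.876).

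Among related genes, operated MRL replicate 4 was high for Tead1 (gap 0.885), Bhlhe40 (0.924), Musk (0.850) and Pax7 (0.892). Unoperated MRL replicate 1 was low for Tead1 (0.841) and high for Sik1 (0.945), Mdfi (0.868) and Vcam1 (0.977). Operated BL6 replicate 4 was high for Vcam1 (0.857). Unoperated BL6 replicate 1 was low for Cbfb (0.840) and high for Ncam1 (0.895). Unoperated BL6 replicate 4 was low for Id3 (0.896) and Id1 (0.924), and unoperated BL6 replicate 3 was low for Chrna1 (0.984). Vgll2 was high in operated BL6 replicate 1 (0.977) and in unoperated MRL replicate 4 (0.854). The causes were not tested.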

How the results depend on the processing

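Of the 45 effects of the 9 regulators, 25 kept their direction and their side of the threshold in all 16 fits that left out 1 sample, and 28 did so under all other alternatives. The calls of Myog, Myod1, Mef2a, Mef2c, Mef2d and Runx1 in BL6 and of Myog and Mef2a in MRL were made under every alternative run. Over the fits leaving out 1 sample, regulators called ranged from 3 to 7 for surgery in MRL (5 with all samples), 1 to 3 between unoperated groups (1) and 0 to 1 between operated groups (0). Between unoperated groups, 2 were called with total-count scaling and with limma voom, 3 with DESeq2, and 4 in a fit of those groups alone or without the 3 libraries that stand apart (unoperated MRL replicate 1, operated BL6 replicate 4 and operated MRL replicate 4). Between operated groups, 1 was called with total-count scaling, with DESeq2 and without those 3 libraries.

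Over the whole table, the interaction called 29 genes, against 14 with total-count scaling, 250 with DESeq2, 67 without the 3 libraries and 1 to 69 without 1 sample. Surgery in MRL called 5272 genes, and 3490 to 6145 without 1 sample. A fit of the 2 groups alone called 2438 genes between unoperated groups (1216 with all samples) and 575 between operated groups (1507). Total-count scaling moved the median of all genes from 0.04 to 0.18 for surgery in BL6 and from 0.01 to 0.15 between unoperated groups. It moved the share of calls that were higher from 48.4% to 70.3% between unoperated and from 59.1% to 72.2% between operated groups.

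The reversals were all of values that did not pass the test. The Myog difference between unoperated groups was 0.0027 with DESeq2 size factors, 0.11 with total counts, 0.0011 with DESeq2, 0.049 with limma voom and 0.099 without the 3 libraries. Total counts gave 0.052 for Mef2d between unoperated and 0.068 between operated groups, and 0.10 for Chrnd in BL6. Without the 3 libraries, the interaction was -0.084 for Myod1 and -0.25 for Mef2d, Runx1 between operated groups was 0.066, and Vgll2 and Pax7 in MRL were -0.12 and -0.17. Without 1 sample, surgery effects ranged from -0.13 to 0.29 for Gadd45a in BL6, -0.18 to 0.062 for Chrnd in BL6, -0.079 to 0.26 for Vgll2 in MRL and -0.048 to 0.35 for Pax7 in MRL. Interactions ranged from -0.46 to 0.095 for Myog, -0.27 to 0.11 for Myf6 and -0.084 to 0.15 for Mef2d. Differences between unoperated groups ranged from -0.30 to 0.25 for Myog and -0.029 to 0.085 for Mef2a, and between operated groups from -0.41 to 0.015 for Myog, -0.18 to 0.057 for Mef2d and -0.48 to 0.37 for Runx1. The cause was not tested.

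Samples share replicate numbers across groups. Deviations of same-numbered samples correlated at -0.14 to 0.16 on average per pair of groups, and not every pair was over 0.1, so the numbers are not taken as pairing. With the replicate block, surgery called 7 regulators in BL6 against 5 in MRL, and the interaction picked 2 genes over the whole table.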
